A study of Mus musculus with 19 samples.

Results

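The genes described here encode the structural proteins of the extracellular matrix: the collagen chains, the laminin chains, the fibulins, and 8 further matrix genes (Fn1, Sparc, Nid1, Nid2, Lox, Postn, Hspg2 and Eln). They were chosen by gene name, and a gene was kept where it reached at least 1 FPKM in at least 2 of the 19 libraries. FPKM is the number of sequenced fragments scaled to transcript length and to the mapped fragments of the library, so levels can be set side by side between genes. Of 38424 entries in the table, 67 carried such a name and 44 of these passed the limit. The 44 comprised 27 of 44 named collagen chains, 8 of 11 laminin chains, 2 of 4 fibulins and 7 of the 8 further genes.

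The cells were mouse embryonic stem cells with a short hairpin RNA, either a control hairpin (shCtrl in the labels) or one against a long non-coding RNA or against the coding gene EVX1, and the series asked which genes differ after such a knockdown during differentiation. In 12 libraries the cells, of strain 129S4/SvJae, were differentiated in serum without LIF, the cytokine that keeps these cells undifferentiated. The line CJ7 gave 1 control and 2 shEvx1as libraries at day 4. The line CJ9 gave 3 libraries at day 4 (1 control, 2 shEVX1), 4 at day 5 (2 controls, 2 shFendrr) and 2 at day 6 (1 control, 1 shLhx1os). The other 7 libraries came from the line 46c after 4 days of neural differentiation in N2B27, a medium without serum, to which retinoic acid was added at 5 nM. Of these, 2 were controls, 2 carried shNr2f1as, 1 carried shSox21os and 2 carried shPou3f3os. The line, the medium and the experiment therefore differ together between the LIF-withdrawal and the retinoic acid cultures, and it is not stated whether the numbered libraries within a group came from separate cultures or hairpins.

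As background, epithelial cells sit on a basement membrane, a sheet in which laminin trimers of an alpha, a beta and a gamma chain and a network of collagen IV are joined by nidogens and by perlecan, the product of Hspg2. It is among the first extracellular matrices that an embryo makes, and embryonic stem cells lay it down as they differentiate. The interstitial matrix of mesenchyme is built instead from fibronectin and fibrillar collagens, which lysyl oxidase, the product of Lox, crosslinks. Fibulins bind to both kinds of matrix.

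The 2 kinds of culture carried different lineage markers. The 4 primitive streak markers (T, Mixl1, Eomes and Gsc) summed to between 38.0 and 559.9 FPKM in the LIF-withdrawal libraries and to between 1.32 and 9.21 in the retinoic acid libraries, while the 4 neural progenitor markers (Sox1, Pax6, Nes and Zic1) summed to at most 56.3 and at least 184, respectively. Pou5f1, a gene of undifferentiated cells, was still between 43.5 and 727 FPKM. Of the targeted transcripts, those with an entry of their own name had lower values after knockdown: Evx1 was at 53.9 FPKM in the EVX1 control and at 30.2 and 37.0 in shEVX1, and Fendrr was at 1.10 and 1.49 in its controls and at 0.358 and 0.0768 in shFendrr. The retinoic acid controls stood apart from each other, with Pou5f1 at 43.5 and 282 FPKM, and every comparison against them rests on that pair.

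Together the 44 genes held between 0.134% and 0.562% of all FPKM in a library. The lowest share was in a retinoic acid control and the highest in shLhx1os. By median level over the 19 libraries, 8 genes were at 50 FPKM or more, 11 between 5 and 50, and 25 under 5. The 8 were Fn1 (fibronectin, median 262), Sparc (a collagen-binding glycoprotein, 238), Col18a1 (the core of a basement membrane proteoglycan, 173), Hspg2 (87.1), Lamc1 (77.6), Lama5 (64.7), Nid2 (64.4) and Lamb1 (55.8). Apart from fibronectin, these are basement membrane components or bind to them. In every library 17 of the 44 genes reached 1 FPKM.

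**Figure D1:**
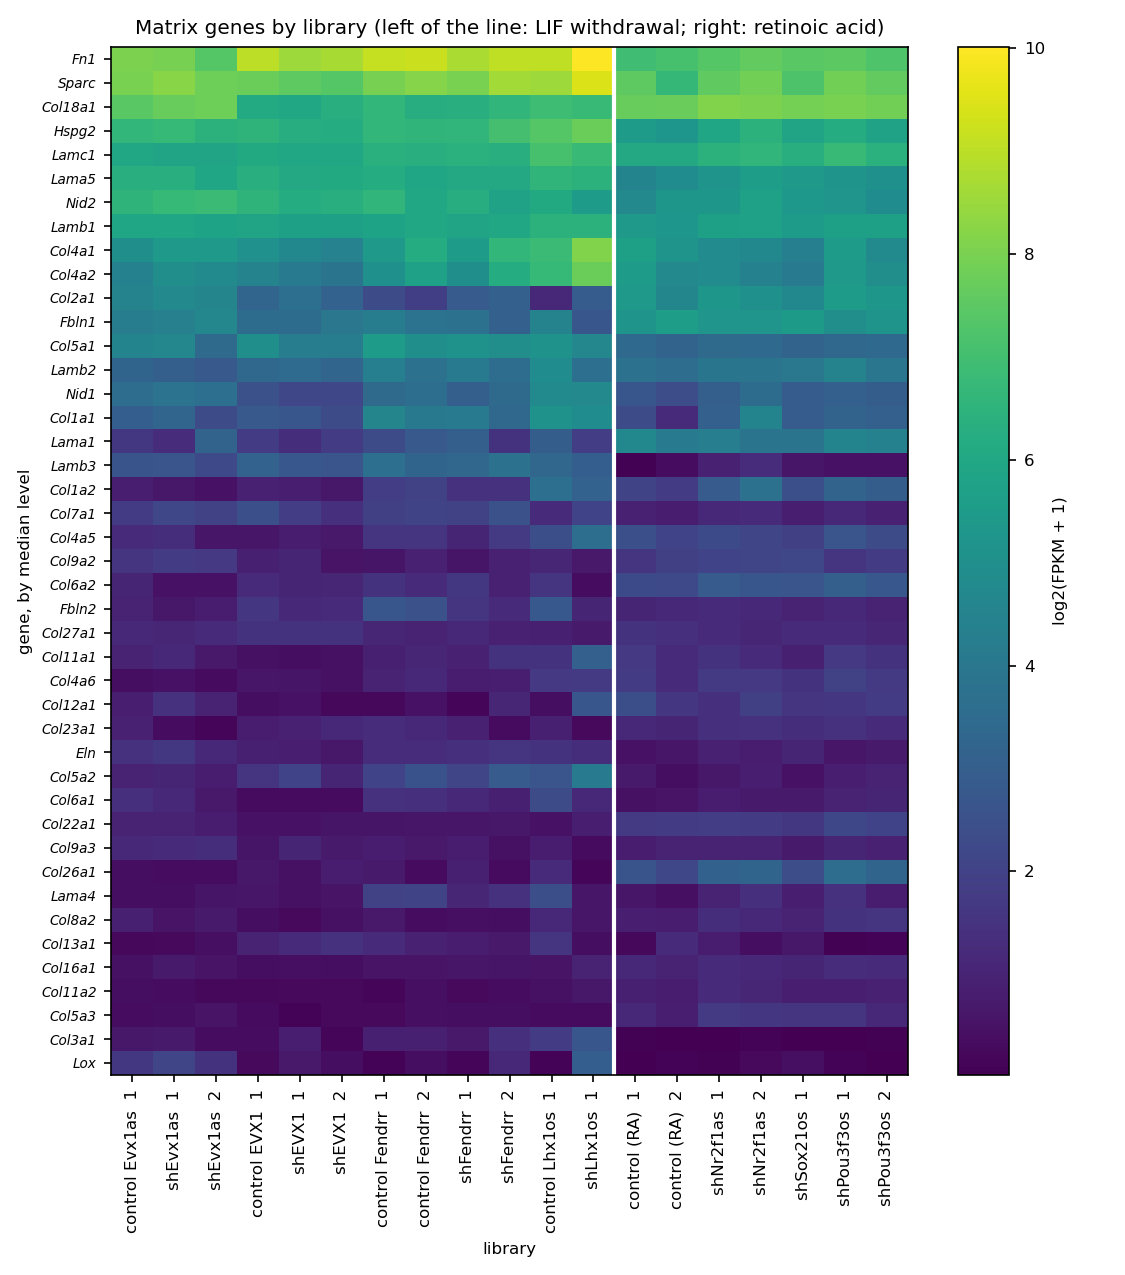
Level of 43 of the 44 matrix genes (rows, ordered by median) in each of the 19 libraries (columns), as log2(FPKM + 1). Fn1, Sparc and Col18a1 are the top rows by median, and Lamb3, Lama1 and Col26a1 differ in level across the line between the LIF-withdrawal and retinoic acid cultures.

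At the edge of the limit, Col11a2, Col16a1 and Col9a3 passed with a second-highest library of 1.13, 1.32 and 1.39 FPKM. Of the 23 named genes that did not pass, Fbln7 (0.877), Lama3 (0.827) and Col20a1 (0.672) came nearest. Postn, a matrix protein of mesenchyme and bone, had a second-highest library of 0.518 FPKM, and Col9a1, a cartilage chain, one of 0.134. Chains that share a trimer with other collagens were among those under the limit: the glomerular collagen IV chains Col4a3 (0.108) and Col4a4 (0.0864), and Col6a3 (0.0699), the partner of Col6a1 and Col6a2. Col8a1 reached 4.00 FPKM in the shLhx1os library and at most 0.160 in any other.

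Collagen IV, the network of the basement membrane, is encoded by pairs of genes that lie head to head. Col4a1 (mm9 chr8:11198423-11312826) and Col4a2 (chr8:11312829-11449287) are 2 bases apart in the table's annotation, and Col4a6 and Col4a5 on the X chromosome are 1342 bases apart. The sources used here do not give whether counting used strand, so fragments at such a junction could be assigned to either partner. The RefSeq promoter windows of Col4a1 (GRCm38.p6 chr8:11312777-11313076, minus strand) and Col4a2 (chr8:11312555-11312854, plus strand) are shown because they are the shared start region of the most abundant collagen IV pair. Each window runs from 250 bases before to 50 bases after the start in its gene's own 5′ to 3′ direction. Capitals mark the motifs CCAAT and GGGCGG on either strand, and 78 bases belong to both windows.
Col4a1: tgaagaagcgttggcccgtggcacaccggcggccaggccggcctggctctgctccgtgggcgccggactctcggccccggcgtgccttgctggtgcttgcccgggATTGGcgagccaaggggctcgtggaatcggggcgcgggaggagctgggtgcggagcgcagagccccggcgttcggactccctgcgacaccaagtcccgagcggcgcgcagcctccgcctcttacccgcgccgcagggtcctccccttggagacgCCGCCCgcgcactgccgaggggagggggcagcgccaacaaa
Col4a2: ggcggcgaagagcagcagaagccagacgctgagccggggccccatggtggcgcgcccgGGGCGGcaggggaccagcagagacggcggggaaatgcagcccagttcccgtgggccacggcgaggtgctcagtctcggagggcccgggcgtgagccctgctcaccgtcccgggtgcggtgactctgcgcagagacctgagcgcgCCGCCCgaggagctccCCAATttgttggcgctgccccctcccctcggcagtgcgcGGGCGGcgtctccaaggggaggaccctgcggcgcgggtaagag
The motif CCAAT was found 1 time in the Col4a1 window and 1 time in the Col4a2 window. The motif GGGCGG was found 1 time in the first and 3 times in the second. The match in the first is the same site as the last match in the second, within the shared bases, so it counts in both windows. For 29 of the 44 genes 33 windows were available, and the comparison is with all 32851 RefSeq promoter windows of this length, searched on both strands. The 33 belong to genes kept for their level, while all windows were taken without such a limit. The motif CCAAT stood in 11 of the 33 (33.3%), against 37.4% of all windows. The motif GGGCGG, the core of a GC box, stood in 24 of the 33 (72.7%), against 35.7% of all windows. The motif TATAAA stood in 3 of the 33 (9.1%), against 13.6% of all windows. The AP-1 site motif, TGACTCA, stood in 1 of the 33 (3.0%), against 5.2% of all windows. None of these motifs is contained in another, and the matches are a description and not binding sites.

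In LIF withdrawal, Col4a1 stood at 31.4 FPKM in the Evx1as control, 33.1 in the EVX1 control, 40.6 and 72.7 in the Fendrr controls and 112 in the Lhx1os control. Col4a2 stood at 20.1, 21.3, 31.5, 52.8 and 103 in the same libraries. Both chains were lowest in the day 4 controls and highest in the day 6 control. The 13 markers of parietal and visceral endoderm, which lay down much collagen IV in the embryo, summed to 33.5 to 91.6 FPKM in these controls, with the highest sum in the Lhx1os control, and to 53.9 and 74.2 in the retinoic acid controls. The genes of this list did not move together. Plat made up 30.7 and 47.3 FPKM of the retinoic acid sums, against 1.12 to 4.48 in the LIF-withdrawal controls. Sox7 was also higher in retinoic acid, at 4.83 and 5.67 FPKM against 0.0988 to 0.431. Dab2, at 7.75 and 15.4 FPKM, lay inside the LIF-withdrawal range of 5.36 to 18.7. Gata4 was lower in retinoic acid, at 1.35 to 1.70 FPKM against 8.81 to 33.3. Gata6 was lower too, at 0.580 to 0.727 FPKM against 5.06 to 9.54. The part of these markers in the collagen IV values was not tested. In the retinoic acid controls Col4a1 was at 51.3 and 35.3 FPKM and Col4a2 at 43.99 and 25.5, inside the range of the LIF-withdrawal controls. The ratio of Col4a1 to Col4a2 stayed between 0.891 and 1.57 over all 19 libraries, while Col4a1 itself ranged from 19.3 to 274 FPKM. Over the 19 libraries the log2 levels of the pair were correlated with Pearson's r = 0.970 and Spearman's rho = 0.912, given as a description of libraries that share cultures and lines. For Col4a5 and Col4a6, chains of smooth muscle and other basement membranes that were at most 11.5 and 2.96 FPKM, r was 0.886 and rho 0.937. For Sparc, whose protein binds collagen IV, and Col4a1, r was 0.837 and rho 0.711.

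Of the laminins, Lamb1 and Lamc1 are the beta and gamma chains of the early embryonic trimer. Lamb1 ranged from 37.9 to 87.1 FPKM and Lamc1 from 56.2 to 138, and both ranges overlapped between the cultures. The ratio of Lamb1 to Lamc1 was 0.627 to 1.05 in LIF withdrawal and 0.479 to 0.633 in retinoic acid. Over the 19 libraries r was 0.528 and rho 0.211 for this pair. The alpha chains Lama5 and Lama1 differed by a larger factor between their lowest and highest libraries. Lama5 ranged from 59.0 to 92.1 FPKM in LIF withdrawal and from 22.3 to 47.2 in retinoic acid. Lama1, the alpha chain of the first embryonic laminin, ranged from 1.44 to 8.18 FPKM in LIF withdrawal and from 13.4 to 25.1 in retinoic acid. Neither range overlapped between cultures, and they lay in opposite directions. The ratio of Lama5 to Lama1 was accordingly 7.46 to 53.2 in LIF withdrawal and 0.890 to 3.48 in retinoic acid.

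Lamb3, a beta chain of the laminin under squamous and surface epithelia, ranged from 3.72 to 12.6 FPKM in LIF withdrawal and from 0.0665 to 1.46 in retinoic acid, and these ranges did not overlap. Lama4, an alpha chain of endothelium and mesenchyme, was above 1 FPKM in 7 libraries and highest in the Fendrr controls (2.87 and 3.19) and the Lhx1os control (4.30). Lamb2, a beta chain of neuromuscular and kidney basement membranes, ranged from 6.10 to 28.5 FPKM.

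**Figure D2:**
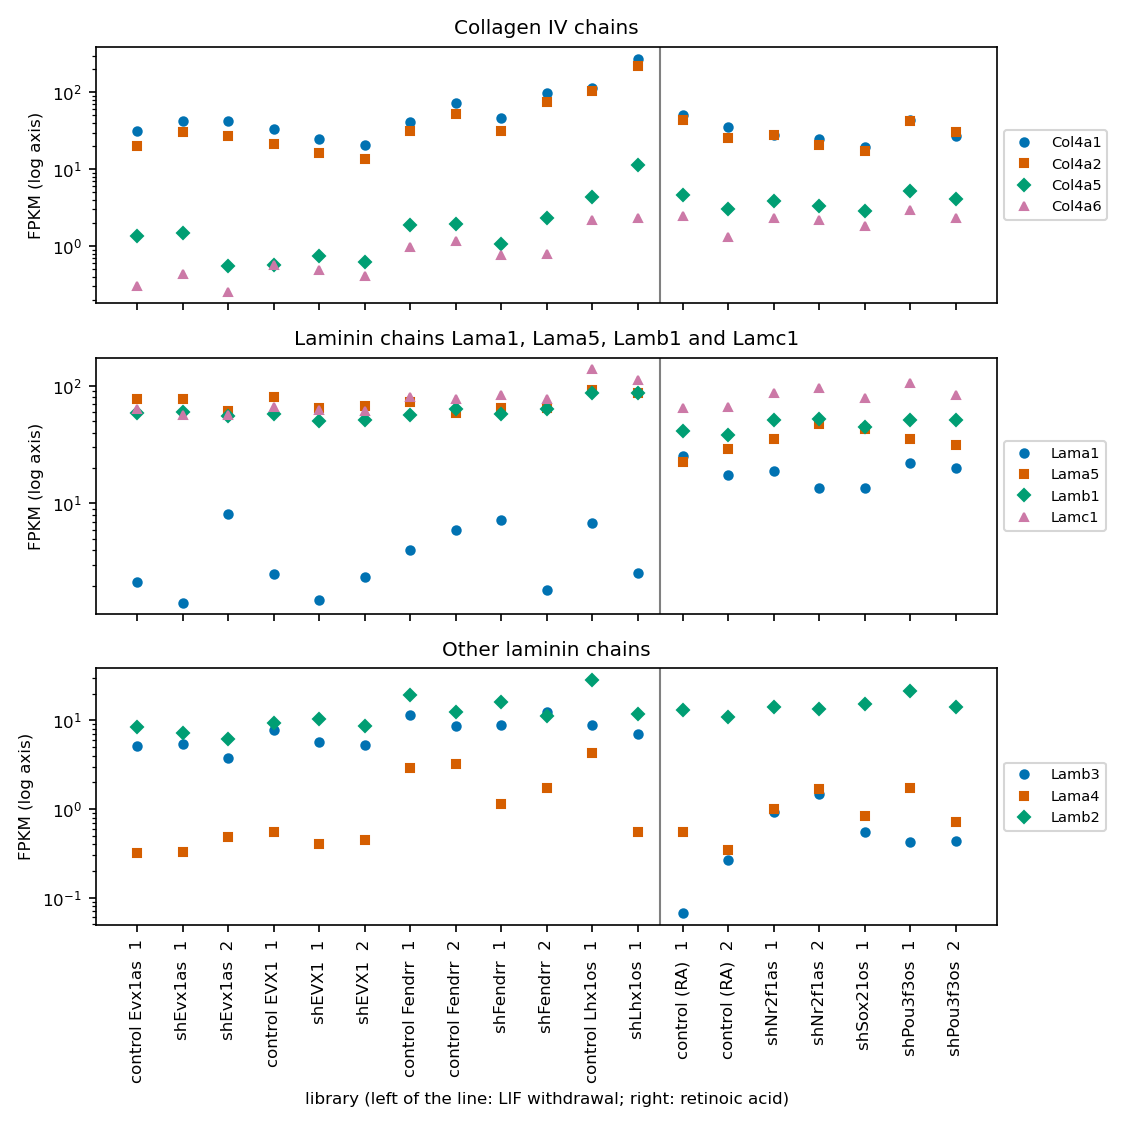
Level in FPKM (log axis) of collagen IV chains and laminin chains in each library; each point is 1 library, and the line separates the 12 LIF-withdrawal from the 7 retinoic acid libraries. Col4a1 and Col4a2 move together, Lama1 lies at or under 8.18 FPKM on the left and at or over 13.4 on the right, and Lamb3 is at a low level on the right.

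The linkers of the basement membrane were abundant throughout. Nid2 ranged from 25.4 to 114 FPKM and Hspg2 from 37.5 to 216, while Nid1, the other nidogen, was lower at 3.42 to 26.7. Col18a1 ranged from 204 to 274 FPKM in the 7 retinoic acid libraries. In LIF withdrawal it stood at 173, 206 and 225 FPKM in the 3 CJ7 libraries and between 61.4 and 119 in the 9 CJ9 libraries, so the CJ7 libraries lay nearer to the retinoic acid libraries than to those of CJ9.

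Among interstitial genes, fibronectin was the most abundant matrix transcript by median, with 262 FPKM in the Evx1as control, 518 in the EVX1 control, 555 and 593 in the Fendrr controls, 526 in the Lhx1os control, and 124 and 137 in the retinoic acid controls. Fn1 alone made up 12.6% to 37.7% of the summed FPKM of the 44 genes. Over the 19 libraries the log2 levels of Fn1 and of Itga5, the alpha subunit of the fibronectin receptor, had r = 0.828 and rho = 0.718. Itga5 was at 58.2 to 92.2 FPKM in LIF withdrawal and 28.3 to 35.5 in retinoic acid, so these values include the difference between cultures. Within LIF withdrawal shLhx1os was highest for both genes. The Fendrr controls, with the next highest Fn1, had the lowest Itga5, at 58.2 and 59.5 FPKM. Col5a1, a chain that nucleates collagen fibrils, ranged from 10.2 to 44.7 FPKM in LIF withdrawal and from 8.10 to 10.04 in retinoic acid. Its partner Col5a2 reached 17.2 FPKM in shLhx1os and was otherwise at most 6.35. Elastin (Eln) stayed between 0.414 and 2.14 FPKM.

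The chains of collagen I, Col1a1 and Col1a2, which form a trimer in mesenchyme, did not keep one ratio. Col1a1 was 2.86 to 15.2 times the level of Col1a2 in LIF withdrawal and 0.574 to 1.75 times in retinoic acid, and over the 19 libraries r was 0.530 and rho 0.509. Col1a1 was highest in the Lhx1os control (33.4 FPKM) and lowest in a retinoic acid control (1.39), and Col1a2 was highest in an shNr2f1as library (12.7) and lowest in an shEvx1as library (0.419). Col3a1, the companion of collagen I in soft tissue, was at most 0.0987 FPKM in any retinoic acid library and reached 2.51 and 5.41 in the Lhx1os control and knockdown.

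Genes of cartilage-type collagens were present at unlike levels. Col2a1, the main chain of cartilage collagen that is also made by early neural and notochordal tissue, ranged from 23.6 to 45.2 FPKM in retinoic acid. In LIF withdrawal it was between 21.6 and 25.5 in the CJ7 libraries, between 8.04 and 11.6 in the day 4 CJ9 libraries and between 1.28 and 7.40 in the day 5 and day 6 libraries. Col11a1, which copolymerises with Col2a1, stayed at or under 2.22 FPKM except in shLhx1os (7.49). The 4 notochord and cartilage markers (Sox9, Shh, Noto and Acan) summed to 0.762 to 9.49 FPKM over all libraries, with at most 1 of them reaching 1 FPKM in a library.

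The CJ9 controls cover days 4, 5 and 6, but each day is another experiment, so day and experiment cannot be told apart and no test was made. From day 4 through the 2 day 5 libraries to day 6, Col1a1 stood at 6.01, 22.9, 15.8 and 33.4 FPKM and Col1a2 at 0.943, 2.55, 2.88 and 11.7. Col2a1 went the other way, at 8.79, 4.06, 2.71 and 1.28. In bulk RNA, more cells of a type and more RNA per cell cannot be told apart, here and in the comparisons that follow.

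Between the cultures, the controls differed in most matrix genes, as they did in most genes. The 5 LIF-withdrawal controls were set against the 2 retinoic acid controls with limma's moderated test on log2(FPKM + 1), each of the 4 LIF experiments weighted equally. At an adjusted p under 0.05, 34 of the 44 genes (77.3%) differed, against 59.8% of all 14942 entries tested. At an unadjusted p under 0.05, 35 did, against 63.9% of all. Higher in LIF withdrawal were 19 (all entries, 29.5%) and lower 15 (all entries, 30.3%). The median log2 difference of the 44 was 0.21 and that of all entries -0.00097. The median of the 44 was -0.10 without the Lhx1os control and 0.41 without the Evx1as control, so its sign changed with 1 library left out.

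By family, 6 of the 8 laminins were higher in LIF withdrawal and 1 was lower, and 6 of the 7 further genes were higher and none lower. Collagens went mostly the other way, with 6 of 27 higher and 13 lower, and of the 2 fibulins 1 was higher and 1 lower. Lamb3, at 5.15 to 11.6 FPKM against 0.0665 and 0.264, was higher by 2.92 ± 0.18 (SE) on the log2 scale with an adjusted p of 5e-07. Lama5 was higher by 1.59 ± 0.15 and Lamb1 by 0.69 ± 0.09, and the groups of controls did not overlap for either. Lamc1 was higher by 0.33 ± 0.10 (adjusted p = 0.0145), but the control groups overlapped, and the estimate was -0.054 with all groups of each culture in place of the controls. Lama1, at 2.14 to 6.77 FPKM against 25.1 and 17.3, was the one laminin that was lower, by 2.21 ± 0.49 (adjusted p = 0.00243).

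The linkers and fibronectin were higher in LIF withdrawal as well. Fn1 was higher by 1.78 ± 0.15 (adjusted p = 4.27e-06), Hspg2 by 1.37 ± 0.18, Nid2 by 1.34 ± 0.21, Nid1 by 1.08 ± 0.17 and Sparc by 0.98 ± 0.23. Of these 5, only Nid1 had overlapping control groups. Among collagens, Col1a1 was higher by 2.02 ± 0.42, Col5a1 by 1.68 ± 0.25, Col5a2 by 1.28 ± 0.28, Col7a1, which anchors surface epithelia to the dermis, by 0.99 ± 0.18, and Col3a1 by 0.87 ± 0.22. Col6a1, of the beaded filaments of collagen VI, was higher by 0.86 ± 0.15 with overlapping control groups.

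Lower in LIF withdrawal was Col2a1, with 21.6, 8.79, 4.06, 2.71 and 1.28 FPKM in the controls against 40.7 and 23.6, by 2.23 ± 0.21 (adjusted p = 8.82e-06). The Evx1as control of CJ7 lay nearest to the retinoic acid controls. Col26a1 was lower by 1.67 ± 0.21, at 0.255 to 1.41 FPKM against 5.13 and 3.48, and Col12a1, a fibril-associated collagen, by 1.51 ± 0.29. Fbln1, at 10.7 to 21.4 FPKM against 35.3 and 47.1, was lower by 1.32 ± 0.20 (adjusted p = 0.000233), while Fbln2 was higher by 0.89 ± 0.14 with overlapping controls. Col22a1 was lower by 1.11 ± 0.12, Col18a1 by 0.97 ± 0.13, Col6a2 by 0.93 ± 0.18, Col5a3 by 0.68 ± 0.14 and Col16a1 by 0.59 ± 0.12. The controls did not overlap for any of these 5.

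The collagen IV pair did not pass the test. Col4a1 differed by 0.24 ± 0.31 (adjusted p = 0.528) and Col4a2 by 0.13 ± 0.33 (adjusted p = 0.748). The direction of both rested on single libraries: without the Lhx1os control the estimates were -0.14 and -0.36, and without the second retinoic acid control -0.029 and -0.25. With all groups of each culture in place of the controls, they were 0.94 (adjusted p = 0.000666 in limma) and 0.62 (adjusted p = 0.0125), so both passed there. Other genes that did not pass were Col11a1, Lox, Col13a1, Lamb2, Col23a1, Col9a3, Col1a2 and Col8a2. Among controls alone, 14 genes were above (25.6% of all entries) and 11 below (27.8% of all) with no overlap. Over all 12 against all 7 libraries, knockdowns included, 6 genes were higher in every LIF-withdrawal library (among them Col3a1, Col5a1, Col7a1, Lama5 and Lamb3). In every one 8 were lower (Col11a2, Col16a1, Col22a1, Col26a1, Col5a3, Col6a2, Fbln1 and Lama1), and 30 overlapped. The share of all entries for this split is not given here, so these counts are a description only. Epithelial transcripts differed with the culture too: the 7 trophoblast markers, which include the keratins Krt7 and Krt8, summed to 394 to 2329 FPKM in LIF withdrawal and 22.5 to 66.2 in retinoic acid. Krt8 alone was at 360 to 2187 and 8.93 to 56.6 FPKM. Krt7, Cdx2 and Ascl2 were also higher in every LIF-withdrawal library. Tfap2c overlapped, at 5.28 to 36.2 FPKM against 3.07 to 16.3, as did the low genes Plac1 and Elf5. The part of these markers in the value of Lamb3 was not tested.

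**Figure D3:**
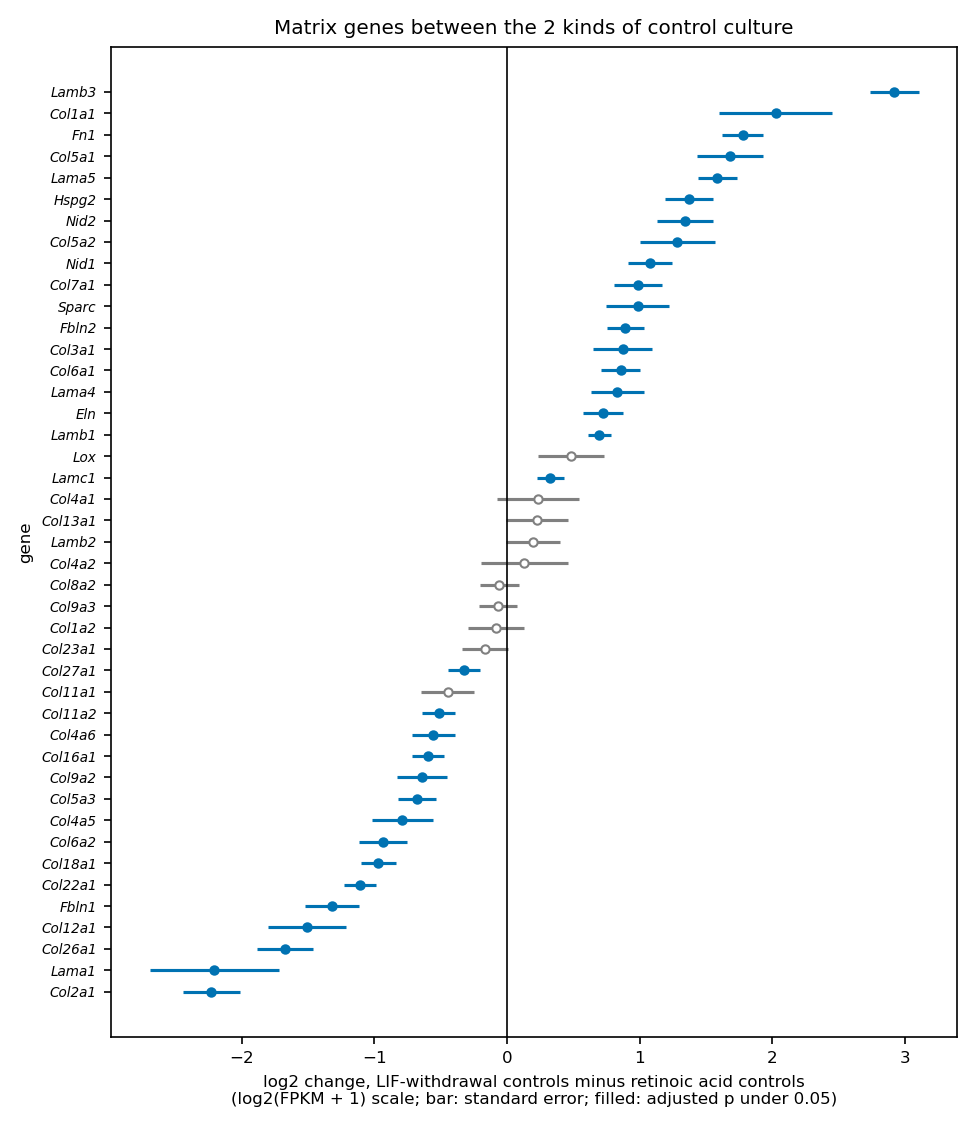
Log2 difference between the LIF-withdrawal controls and the retinoic acid controls for 43 of the 44 genes, on the log2(FPKM + 1) scale, with its standard error; filled points have an adjusted p under 0.05. Lamb3 (2.92) stands at the upper end and Col2a1 (-2.23) and Lama1 (-2.21) at the lower, with Col4a1 (0.24) and Col4a2 (0.13) not called.

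Genes of 4 further lists were set beside the share of all entries called between the cultures, 59.8%. The share was 77.8% for receptors, 57.7% for processing and crosslinking, 78.9% for other matrix proteins and 66.7% for proteases and inhibitors, so processing and proteases were near that of all entries. Of 18 receptor genes tested, 12 were higher in LIF withdrawal and 2 lower, among them the integrin subunits Itgb5 (higher by 2.23), Itgav (1.69) and Itga5 (1.21), and Bcam (1.54), a receptor for the Lama5 protein. Of 26 genes of collagen processing and crosslinking, 10 were higher and 5 lower, with Pcolce (2.78) and Pcolce2 (1.70), enhancers of procollagen cleavage, and the lysyl oxidase relative Loxl4 (2.34) higher, and the prolyl hydroxylase Leprel2 lower (-1.62). Of 38 other matrix proteins, 12 were higher, with Tinagl1 (3.37), and 18 lower, with the microfibril genes Mfap2 (-2.76) and Fbn2 (-2.34) and the brain proteoglycan gene Ncan (-1.76). Of 21 proteases and inhibitors, 10 were higher, with Mmp14 (2.12), Adamts9 (1.75) and Timp1 (1.19), and 4 lower, with the plasminogen activator Plat (-3.45). In all 6 tested knockdown comparisons, none of the genes in these 4 lists passed the adjusted threshold of limma's test. Between 0 and 9 genes of a list had an unadjusted p under 0.05. The highest count was 9 of the 38 other matrix proteins in shPou3f3os, against 20.8% of all entries. Of the 18 receptor genes, 6 did in shNr2f1as, against 18.1% of all.

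In the day 4 cultures, none of the 44 genes was called after knockdown of the lncRNA Evx1as or of EVX1. In all 14942 entries, 0.00669% were called in each comparison, which is 1 entry. At an unadjusted p under 0.05, 2 of the 44 genes passed for shEvx1as (4.38% of all entries) and 1 for shEVX1 (3.32% of all). Each comparison rests on a single control library, which the model takes to vary like the groups of 2. The median log2 change of the 44 was -0.03 for shEvx1as and -0.11 for shEVX1, against 0.05 for all entries in both. With 1 library left out, the shEvx1as median ran from -0.16 to 0.08, so its sign was not stable.

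For shEvx1as, the collagen IV genes had the largest positive estimates among those with both knockdown libraries on one side of the control: Col4a2 at 20.1 FPKM in the control and 30.3 and 26.8 in the knockdown (0.48 ± 0.47), and Col4a1 at 31.4 against 41.8 and 42.1 (0.41 ± 0.44). Col12a1 followed with 0.34 ± 0.42. The largest negative estimates were those of Col23a1, a transmembrane collagen (0.907 against 0.289 and 0.124 FPKM, -0.66 ± 0.25), and of the collagen VI chains Col6a2 (1.10 against 0.413 and 0.436, -0.56 ± 0.26) and Col6a1 (1.63 against 1.22 and 0.634, -0.46 ± 0.21). All 6 had an adjusted p of 1. Both knockdown libraries lay above the control for 15 of the 44 genes (44.6% of all entries) and below it for 12 (26.3% of all).

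For shEVX1, 25 of the 44 genes were below the control in both knockdown libraries, against 26.5% of all entries, and 9 above it, against 46.7% of all. Below it were 7 of the 8 laminins, Lamb2 being the exception. Col7a1 had the largest estimate, at 4.46 FPKM in the control and 2.61 and 1.57 in the knockdown (-0.84 ± 0.26, adjusted p = 1), followed by Col5a1 at 31.2 against 17.9 and 18.1 (-0.76 ± 0.36). Fn1 was at 518 against 370.5 and 419.7 FPKM. The largest positive estimates were 0.35 for Col13a1, 0.28 for Col9a3 and 0.27 for Lox. All these positions are relative to the same single control library. The 6 lateral mesoderm markers summed to 28.0 FPKM in this control and to 16.7 and 17.2 in shEVX1, and the 7 trophoblast markers to 783 FPKM in the control and to 600.2 and 429.9, of which Krt8 made up 730.5, 563 and 394. The part of both lists in these values was not tested. The difference between the effects of shEvx1as and shEVX1 passed the adjusted threshold of limma's test for none of the 44 genes and for 0% of all entries. At an unadjusted p under 0.05 it passed for 2 of the 44 (2.86% of all).

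At day 5, Fbln2 was the 1 matrix gene called after knockdown of Fendrr. Fbln2 encodes a fibulin of basement membranes, vessels and the embryonic heart. It was at 5.43 and 4.73 FPKM in the controls and at 1.95 and 1.29 in the knockdown, so the groups did not overlap, and it fell by 1.22 ± 0.16 (SE) on the log2 scale with an adjusted p of 0.0184. In all entries 0.147% were called, 0.0937% lower and 0.0535% higher. The adjusted p was 0.112 with a pseudocount of 0.1, 0.0553 among entries of at least 5 FPKM, 0.976 with the 4 libraries modelled alone, and 0.0751 to 0.181 without 1 of the controls or without shFendrr replicate 2, so the call ended in each of these. Without shFendrr replicate 1 it was 0.012. The RefSeq promoter window of Fbln2 (GRCm38.p6 chr6:91212514-91212813, plus strand) is shown as that of the called gene, with the same motifs in capitals.
Fbln2: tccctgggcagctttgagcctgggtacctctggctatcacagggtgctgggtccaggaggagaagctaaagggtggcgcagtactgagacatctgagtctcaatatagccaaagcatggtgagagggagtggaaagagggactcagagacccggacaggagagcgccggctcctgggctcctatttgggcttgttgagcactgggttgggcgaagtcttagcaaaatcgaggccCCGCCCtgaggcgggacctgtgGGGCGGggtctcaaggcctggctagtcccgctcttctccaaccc
It held no CCAAT and 2 GGGCGG.

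Several other genes had lower values in shFendrr without passing the adjusted threshold. Lama4 was at 2.87 and 3.19 FPKM in the controls and at 1.15 and 1.71 in the knockdown (-0.74 ± 0.23, adjusted p = 0.548), and Fbln1 at 17.6 and 13.2 against 12.4 and 7.45 (-0.61 ± 0.24, adjusted p = 0.68). For neither gene did the groups overlap. Col2a1 went the other way, at 4.06 and 2.71 against 6.43 and 7.40 FPKM (0.87 ± 0.25, adjusted p = 0.485), and Eln (0.16) and Col16a1 (0.06) were the next genes whose knockdown libraries both lay above the controls. At an unadjusted p under 0.05, 6 of the 44 genes passed, 5 of them lower, against 7.03% of all entries. The knockdown libraries lay above both controls for 4 genes (14.4% of all entries) and below both for 10 (15.7% of all), and the median change was 0.01 against 0.00.

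The lateral mesoderm markers differed between the same libraries. All 6 (Hand1, Hand2, Foxf1, Tbx20, Bmp4 and Isl1) were in the table, and their sum was 183 to 204 FPKM in the controls and 67.1 to 89.3 in the knockdown, with Hand1 at 118 and 142 against 55.01 and 34.5. The 7 endothelial markers summed to 27.8 to 28.6 FPKM in the controls and 18.3 to 19.3 in the knockdown. Of these, Kdr (13.4 and 9.52 against 7.24 and 2.71), Pecam1 and Cdh5 were below both controls. Flt1 overlapped (7.70 and 12.9 against 7.32 and 12.2), as did Tek, and Emcn was at 0. The 4 neural crest markers summed to 15.8 to 24.7 FPKM in the controls and 19.7 to 41.0 in the knockdown. The part of these markers in the Fbln2 and Lama4 values was not tested. Col4a1 was at 40.6 FPKM in control replicate 1 and 45.6 in shFendrr replicate 1, and at 72.7 and 99.1 in the second library of each group. Acta2, a smooth muscle actin in the fibroblast and feeder list, was likewise at 21.6 and 25.0 FPKM in the first and 66.2 and 152 in the second libraries.

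At day 6 there was 1 library with and 1 without the hairpin against Lhx1os, so values were compared with no test, among genes with at least 5 FPKM in one of them. Of 27 matrix genes at that level, 9 were at least 2-fold higher in shLhx1os, against 5.78% of 9015 entries, and 4 at least 2-fold lower, against 7.67% of entries. Of the higher genes, Lox, Col12a1, Col2a1, Col11a1, Col3a1 and Col4a5 reached 5 FPKM only in shLhx1os. Of the lower genes, Lama1 and Fbln2 reached it only in the control. The balance of 9 and 4 therefore depends on the level chosen. At a level of 1 FPKM the split was 10 higher and 10 lower of 37, against 8.15% and 10.6% of entries. This added Col7a1 (2.23-fold) among the higher, and among the lower Col26a1 (10.6-fold), Lama4 (7.80-fold), Col6a2 (6.47-fold), Col13a1 (6.37-fold), Col6a1 (3.24-fold) and Col8a2 (2.37-fold). Between libraries of one group, at the level of 5 FPKM, 0 to 3 matrix genes differed by 2-fold in the 7 groups of 2 libraries. Of all entries, 0.684% to 5.73% did. The highest counts were 3 of 19 matrix genes in shEvx1as (1.77% of entries) and 3 of 20 in shFendrr (5.73% of entries). Lox, the collagen crosslinking enzyme, was at 0.0839 FPKM in the control and 7.13 in shLhx1os, a ratio of 85.0. Col12a1 was at 0.332 and 5.54 (16.7-fold), Col2a1 at 1.28 and 6.56 (5.14-fold), Col11a1 at 1.79 and 7.49 (4.19-fold) and Col5a2 at 5.26 and 17.2 (3.27-fold). The control values of Lox and Col12a1 are under 1 FPKM, and their ratios are the least certain.

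Of the 4 collagen IV chains in the set, 3 were more than 2-fold higher. Col4a1 was at 112 FPKM in the control and 274 in shLhx1os (2.44-fold), Col4a2 at 103 and 217 (2.11-fold) and Col4a5 at 4.41 and 11.5 (2.61-fold). The shLhx1os values of these 3 were the highest of the 19 libraries. Col4a6 was at 2.18 and 2.33 FPKM. Col3a1 was 2.16-fold higher, and Fn1, at 526 and 1031 FPKM, and Sparc, at 369 and 709, were just inside the limit at 1.96-fold and 1.92-fold. The main laminins were not past the limit: Lamb1 was at 86.3 and 87.1 FPKM and Lama5 at 92.1 and 86.8, while Lama1 was 2.62-fold lower and Lamb2 2.43-fold lower. Fbln2, at 5.77 and 1.08 FPKM, was 5.33-fold lower and Fbln1, at 21.4 and 5.49, 3.90-fold lower. Of collagen I, Col1a1 was at 33.4 and 28.6 FPKM and Col1a2 at 11.7 and 7.85.

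Counted without a limit, 19 of the 44 were above the control and 25 below, and their median log2 difference was -0.11 against -0.06 for all 14942 entries. Among those at 5 FPKM it was 0.01 for the 27 genes and -0.09 for the 9015 entries. Markers of other cells differed between the same 2 libraries. The 12 fibroblast and feeder markers summed to 180.2 FPKM in the control and 1560.6 in shLhx1os, of which Acta2 (34.7 and 475) and Tagln (116 and 1053) made up most, with 8 of the 12 at 1 FPKM or more in each. Pdgfra was at 4.57 and 0.286 FPKM, Dcn at 0.271 and 1.98, and Lum at 0 and 0.0445. The lateral mesoderm markers summed to 305 and 55.9 FPKM and the parietal and visceral endoderm list to 91.6 and 35.9. The trophoblast list summed to 1452 and 2329, of which Krt8 was 1148 and 2187, while Krt7 (172 and 120), Cdx2 (44.3 and 9.73), Tfap2c (36.2 and 5.28), Ascl2 (33.8 and 5.34) and Plac1 (18.1 and 1.75) were lower in shLhx1os. The part of these markers in the matrix values was not tested.

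**Figure D4:**
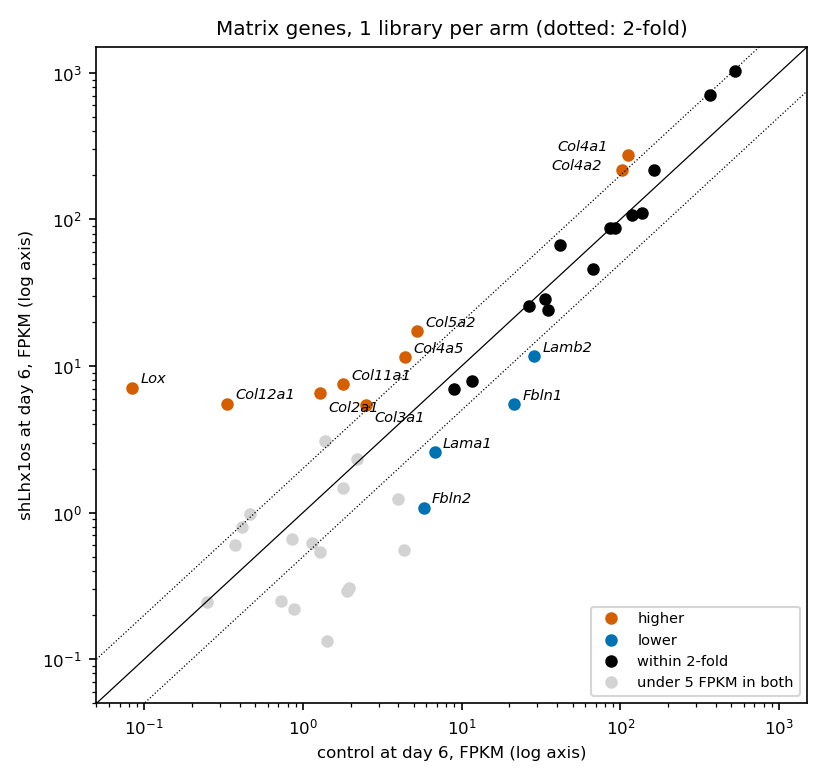
Level of each of the 44 genes in the shLhx1os library (y axis, FPKM, log) against its control at day 6 (x axis, FPKM, log); the solid line is equality, the dotted lines 2-fold, and each point is 1 gene in 1 library per arm. Lox, Col12a1 and the collagen IV genes Col4a1, Col4a2 and Col4a5 lie above the upper dotted line, and both fibulins lie below the lower one.

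In the retinoic acid cultures the matrix genes, like all entries, were more often above than below the controls in all 3 knockdowns. These comparisons share the same 2 controls, so they are set side by side and do not support each other. The median log2 change of the 44 genes was 0.30 for shNr2f1as, 0.13 for shSox21os and 0.28 for shPou3f3os, against 0.04, 0.03 and 0.04 for all entries. All knockdown libraries lay above both controls for 26 genes in shNr2f1as (25.5% of all entries), 22 in shSox21os, where there is 1 library (37.2% of all), and 23 in shPou3f3os (31.5% of all). Below both controls lay 2 genes (20.8% of all), 11 (30.7% of all) and 2 (21.6% of all), respectively. In shSox21os the 27 collagens were even, with 9 above and 9 below both controls and a median change of -0.02. The laminins there had 7 above and 1 below, and the further genes 6 above and 0 below.

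Col1a2, a chain of collagen I, was the 1 gene called for shNr2f1as, where 0.676% of all entries were called and 0.422% called higher and 0.254% lower. It was at 3.26 and 2.42 FPKM in the controls and at 6.42 and 12.7 in shNr2f1as, and it rose by 1.41 ± 0.25 (SE; adjusted p = 0.0433). The adjusted p was 0.0741 with no filter on low entries, 0.38 with the 4 libraries modelled alone, 0.0861 without shNr2f1as replicate 2 and 0.0979 without control replicate 2. For shPou3f3os, 2 of the 44 genes were called, where 2.32% of all entries were called and 1.6% called higher and 0.716% lower. Col1a2, at 8.11 and 6.80 FPKM, rose by 1.14 ± 0.25 (adjusted p = 0.044). Lamc1, at 64.8 and 65.7 FPKM in the controls and 106 and 83.3 in shPou3f3os, rose by 0.52 ± 0.12 (adjusted p = 0.048). With 1 library left out, the adjusted p of Col1a2 was 0.173 to 0.236, except without control replicate 1 (0.0293), and that of Lamc1 was 0.0613 to 0.272. With the 4 libraries modelled alone they were 0.227 and 0.239. The RefSeq promoter window of Col1a2 (GRCm38.p6 chr6:4505368-4505667, plus strand) is shown as that of the gene called in both comparisons.
Col1a2: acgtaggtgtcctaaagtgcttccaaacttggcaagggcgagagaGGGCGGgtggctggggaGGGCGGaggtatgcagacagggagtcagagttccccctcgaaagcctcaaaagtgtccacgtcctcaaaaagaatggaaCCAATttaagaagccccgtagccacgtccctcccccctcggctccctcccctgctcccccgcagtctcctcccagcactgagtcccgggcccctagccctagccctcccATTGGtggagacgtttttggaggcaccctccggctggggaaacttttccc
It held 2 CCAAT, one as its reverse complement, and 2 GGGCGG.

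For shSox21os, with 1 library, none of the 44 genes was called, where 0.0669% of all entries were (0.0468% higher and 0.0201% lower), and 4 passed an unadjusted p under 0.05 (11.4% of all). Col1a2 was at 4.44 FPKM there (0.51 ± 0.30, adjusted p = 0.561). Its partner Col1a1 had a larger estimate than Col1a2 in all 3 knockdowns without being called. It was at 3.99 and 1.39 FPKM in the controls, 7.51 and 22.3 in shNr2f1as (2.03 ± 0.50, adjusted p = 0.0757, and 0.0471 without the first control), 6.64 in shSox21os (1.15 ± 0.61, adjusted p = 0.513) and 8.28 and 7.48 in shPou3f3os (1.36 ± 0.50, adjusted p = 0.153). All 5 knockdown libraries were above both controls, and the shNr2f1as libraries were the farthest apart.

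Laminin chains had positive estimates in the same comparisons. Lama5 was at 22.3 and 28.8 FPKM in the controls, 35.6 and 47.2 in shNr2f1as (0.67 ± 0.17, adjusted p = 0.0878), 42.6 in shSox21os (0.72 ± 0.21, adjusted p = 0.245) and 35.1 and 31.5 in shPou3f3os (0.38 ± 0.17, adjusted p = 0.244), above both controls throughout. In shNr2f1as 7 of the 8 laminins lay above both controls and none below, against 25.5% and 20.8% of all entries. In shPou3f3os it was 6 and none, against 31.5% and 21.6% of all. In the 1 shSox21os library it was 7 and 1, against 37.2% and 30.7% of all. The same 2 controls serve all of these counts. Lama1 was not above both controls in any of the 3, at 25.1 and 17.3 FPKM in the controls and 13.4 to 22.2 in the 5 knockdown libraries (-0.60 in shSox21os).

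Of 12 collagen IV estimates, for 4 chains in 3 knockdowns, 7 were negative and 5 positive, and none passed (smallest adjusted p of limma's test 0.31). Col4a1 was at 51.3 and 35.3 FPKM in the controls, 28.0 and 25.0 in shNr2f1as (-0.67 ± 0.36, adjusted p = 0.363), 19.3 in shSox21os (-1.10 ± 0.44, adjusted p = 0.38), and 43.96 and 27.2 in shPou3f3os (-0.29 ± 0.36, adjusted p = 0.705, and 0.045 without the second shPou3f3os library). Of these only the shPou3f3os libraries overlapped the controls. Col4a2 was at 43.99 and 25.5 in the controls and 17.1 in shSox21os (-0.93 ± 0.47, adjusted p = 0.494), and it overlapped the controls in the other two. Col27a1, a fibrillar collagen of cartilage, was below both controls in all 5 knockdown libraries, at 1.12 to 1.38 FPKM against 1.80 and 1.69, with estimates of -0.31, -0.25 and -0.29. Col26a1, at 5.13 and 3.48 FPKM in the controls and 10.996 and 8.34 in shPou3f3os, had an estimate of 1.01 ± 0.25 (adjusted p = 0.0586, and 0.0314 without the first control). Col13a1 was at 0.189 and 1.39 FPKM in the controls and 0.0543 and 0.0859 in shPou3f3os, with an estimate of -0.66 ± 0.28 (adjusted p = 0.207). With 1 library left out that estimate ran from -1.16 (adjusted p = 0.0124, without the first control) to -0.15.

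At an unadjusted p under 0.05, 17 of the 44 genes passed for shNr2f1as, all of them higher (18.1% of all entries in either direction), and 14 for shPou3f3os, 13 of them higher (20.8% of all). The undifferentiated markers and the fibroblast and feeder markers differed among the same libraries, and the genes of the second list did not move together. The 4 undifferentiated markers summed to 64.5 and 416 FPKM in the controls, 149 to 283 in shNr2f1as, 262 in shSox21os and 75.0 in shPou3f3os. The 12 fibroblast and feeder markers summed to 128 to 278 FPKM in the controls, 329.99 to 449 in shNr2f1as, 408 in shSox21os and 306 to 387 in shPou3f3os, mostly from Tagln and Acta2, with 5 or 6 of the 12 at 1 FPKM or more. Tagln, Acta2, Pdgfra and Pdgfrb were above both controls in all 5 knockdown libraries. Twist1 was below both in all 5, at 4.88 to 8.34 FPKM against 14.9 and 12.5. Twist2 was at 0.178 to 0.801 FPKM against 1.39 and 0.735. Dcn was at most 0.0617 FPKM in these libraries, and Lum and Fap were at 0 in all 7. The part of these markers in the matrix values was not tested.

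**Figure D5:**
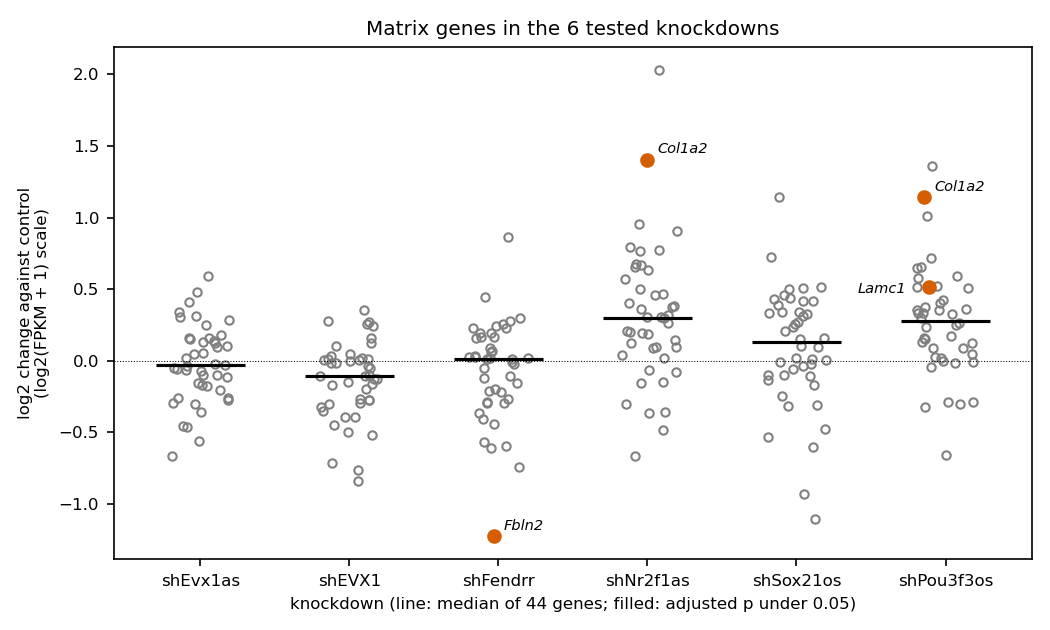
Log2 change against control of each of the 44 genes (points) in the 6 tested knockdowns, on the log2(FPKM + 1) scale; the line is the median of the 44 and filled points have an adjusted p under 0.05. The medians are 0.30 for shNr2f1as, 0.28 for shPou3f3os and 0.13 for shSox21os, and between -0.11 and 0.01 for the LIF-withdrawal knockdowns, and Fbln2, Col1a2 and Lamc1 are the genes called.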

How the data were processed

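RNA with poly(A) tails from 19 libraries was sequenced after preparation with a stranded mRNA kit, per the labels' protocols. The authors deposited 1 table of FPKM values with 38424 entries. The submitters' processing notes name CASAVA, TopHat2 2.0.11 and both mm10 and mm9, without their roles. The sources used here do not give the quantifier, the annotation or the use of strand. Of 18913 matched coding symbols, 4.6% ended within 1000 bases of their GRCm38 position, and 116 entries lie on random chromosomes, so the table's positions are given as mm9. Promoter windows come from RefSeq on GRCm38.p6 and were matched by symbol only.

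The 14942 entries that reached 1 FPKM in 2 or more libraries were put on the log2(FPKM + 1) scale, where changes of low genes appear smaller than they are. Limma 3.58.1 in R 4.3.3 fitted 1 model to all libraries, with 12 group means, a trended variance prior and 7 residual degrees of freedom. Tests were two-sided with Benjamini-Hochberg adjustment over all 14942 entries and a threshold of 0.05. A group with 1 library is taken to vary like the groups of 2, and a p-value reflects the spread among these libraries alone, which may be technical. The shLhx1os pair was compared without a test. Replicates of a group correlated at 0.975 to 0.993. The scripts were tested on simulated data. Absolute depth is unknown.

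The members, lists and tests were chosen with earlier results of these data known. Genes were named by role, by call, as the 3 largest estimates in each direction with the knockdown libraries on one side of the controls, as the 10 largest called differences in each direction without overlap between the cultures, or as the 5 largest ratios in each direction for shLhx1os. From other lists, up to 4 called genes were named. Members given only by a level or range, Col8a1, Col4a3, Col4a4, Col6a3, the uncalled genes of the culture comparison and Col27a1 in shSox21os were chosen after seeing values. 1 gene that the rule names is counted but not reported here. Marker lists were summed in FPKM. Alternatives covered the pseudocount, filter, scaling, variance prior, libraries in the fit and a replicate block.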

Additional observations from a re-analysis of the deposited data

How the results depend on the processing

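The alternatives were a pseudocount of 0.1, no filter, a floor of 5 FPKM, rescaling by median ratio or to equal totals, a variance prior without a trend, the groups of a comparison modelled alone, all groups of each culture in place of controls, leaving out each library in turn, and a replicate block. Leaving out single-library LIF-withdrawal controls was chosen after seeing the data. Of the 68 log2 changes of single genes refitted, 4 turned in sign. With 1 library left out, the Col4a1 estimate ran from -0.14 to 0.50 between the cultures and from -0.63 to 0.045 in shPou3f3os, and that of Col4a2 from -0.36 to 0.51 between the cultures. Lamc1 between the cultures was -0.054 with all groups in place of controls. The median change ran from -0.16 to 0.08 for shEvx1as, from -0.10 to 0.01 for shFendrr and from -0.10 to 0.41 between the cultures with 1 library left out. The number of matrix genes called for shEvx1as, shEVX1, shSox21os and the difference of the shEvx1as and shEVX1 effects was 0 under every setting run. For shFendrr (1 called) it was 0 with the pseudocount of 0.1, 0 with the floor of 5 FPKM, 0 with its groups modelled alone, and 0 to 2 with 1 library left out. For shNr2f1as (1 called) it was 2 with the pseudocount, 0 with no filter, 0 modelled alone and 0 to 2 with 1 library left out. For shPou3f3os (2 called) it was 1 with the pseudocount, 0 with no filter, 1 after median ratio scaling, 0 modelled alone and 0 to 4 with 1 library left out. Between the cultures (34 called) it was 21 with the floor of 5 FPKM, where fewer genes are tested, and 30 to 34 with 1 library left out. For shLhx1os (13 past 2-fold) it was 20 at a level of 1 FPKM, 10 higher and 10 lower, and 4 at 20 FPKM. The cause of these shifts was not tested beyond this.

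Same-numbered libraries were not shown to be paired, with correlations of their deviations from the group means of 0.35 for Fendrr and of 0.303, -0.019 and -0.053 in the retinoic acid groups. With the replicate block 5 matrix genes were called for shPou3f3os, and the counts of the other comparisons that could be fitted stayed as they were.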
